A study of Homo sapiens with 36 samples.

Results

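The response of IRG1 knockout (KO) THP-1 macrophages to LPS plus interferon-gamma was measured after 12 h by comparing 3 libraries titled IRG1 KO, LPS&IFNg Stimulated, 12Hr with 3 titled IRG1 KO, Vehicle, 12Hr. These are 6 of the 36 libraries of the series. THP-1 is a human monocytic leukaemia cell line, and IRG1, now named ACOD1, encodes the enzyme that turns cis-aconitate into itaconate. WT and KO cells were treated with PMA at 100 nM for 72 h, which turns them into adherent macrophage-like cells, and then received vehicle or LPS at 200 ng/mL with IFN-gamma at 200 ng/mL for 6, 12 or 24 h, with 3 libraries in each of 12 groups. Total RNA was depleted of ribosomal RNA and sequenced. The KO 12 h groups are compared below with the WT 12 h groups and with the KO 6 h and KO 24 h groups, all of which carry the same PMA treatment. How the knockout was made, which part of the gene it removes and whether the line is 1 clone are not given in the sources used here.

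LPS is sensed by TLR4, which acts through MYD88 and TRIF to release NF-kB, AP-1 and IRF3 and so to switch on cytokine, chemokine and type I interferon genes. Interferon-gamma acts through JAK1 and JAK2 on GAS elements and raises IRF1, the guanylate-binding proteins and the MHC genes. Macrophages given both stimuli are the classical example of inflammatory activation, in which ACOD1 is one of the genes that rise most and its product itaconate blocks succinate dehydrogenase.

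Values are log2 expression values as deposited, so a difference of 1 is a doubling. A change is the stimulated mean minus the vehicle mean, with a standard error from limma after ±, and a gene is called at a Benjamini-Hochberg adjusted p below 0.05 over all 21232 genes tested. A linear fold is given only where both group means reach a linear value of 10. Nothing in the labels states that the replicates were separate cultures, and the p-values then reflect only the spread among these libraries, which may be technical. In bulk RNA, fewer cells of a type and less RNA per cell cannot be told apart. Read depth is unknown, because the table holds no counts.

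The libraries numbered 2 stood apart from their group in both treatments. Across genes, stimulated libraries 1 and 3 correlated at r = 0.963 and library 2 with them at 0.937 and 0.936. Vehicle libraries 1 and 3 correlated at 0.969 and library 2 with them at 0.955 and 0.945. In vehicle cells 179 genes were lower in KO than in WT by more than 2 on the log2 scale at both 6 h and 24 h. Their median level at 12 h was 1.41, 2.49 and 1.59 in KO vehicle libraries 1 to 3. In the WT vehicle libraries it was 4.90, 4.60 and 4.90. Over the 98 such genes of stimulated cells it was 1.85, 3.11 and 1.88 in the KO libraries and 5.12, 4.87 and 5.07 in the WT libraries. Both libraries numbered 2 thus lay nearer to WT than libraries 1 and 3 and were still on the KO side. Their part in the results was not tested beyond leaving them out, and results are given below with and without both; the comparison without them is called the 4-library comparison.

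The cells expressed macrophage and monocyte genes: 12 of 12 myeloid markers, among them CD14, CD68, CSF1R and SPI1, had means of at least the linear value 10 in both groups. Most genes reach that value, since the 25th percentile of each library was at least 3.52, against 3.32 for a linear 10. Of 12 T, NK and B cell markers, 7 in vehicle and 8 in stimulated cells reached it too. The summed level of the 12 myeloid markers was 13.57 to 13.92 (log2) in vehicle and 13.36 to 13.52 in stimulated libraries. Dendritic cell markers summed to 7.06 to 7.82 in vehicle and 12.36 to 12.74 in stimulated libraries, with 5 of 10 tested members called higher, CCR7 and LAMP3 leading them, and 1 called lower, CD1A at -2.74. T, NK and B cell markers summed to 10.73 to 11.62 and 9.70 to 9.97, granulocyte, mast cell and platelet markers to 7.90 to 8.30 and 8.03 to 8.49, and epithelial, stromal and endothelial markers to 6.48 to 7.34 and 6.77 to 7.54. In vehicle cells the T, NK and B cell sum was led by TRAC, at 10.65. In stimulated cells TRAC was 6.82, far below the sum of 9.70 to 9.97, so other members made up most of it. CD3D was below 1 in both groups. Markers of immature myeloid cells summed to 14.69 to 14.97 and 14.55 to 15.06, so these levels do not separate macrophages from less mature myeloid cells. Single members did change. Of 16 tested, 2 were called higher and 5 lower (12.5% and 31.2%, against 15.5% and 19.5% of all genes). In the 4-library comparison the counts were 2 and 4. MS4A3 changed by -3.56, KIT by -3.31, MYB by -2.29 and GFI1 by -2.10, while CD34 rose by 2.42 and SRGN by 1.56. The part of these markers in the results below was not tested.

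ACOD1 was near 0 in vehicle cells and abundant after stimulation. Vehicle libraries 1 to 3 read 0.03, 0.33 and 0.01, and stimulated libraries 1 to 3 read 7.98, 10.22 and 8.49. The groups did not overlap, and stimulated library 2 was the highest. The change was 8.77 ± 0.47 (adjusted p = 9.33e-15), and 8.22 in the 4-library comparison. In WT cells at 12 h it was 11.32, and the difference of the 2 responses was -2.55 ± 0.67 (adjusted p = 0.13), which was not called. Since the deleted part of the gene is not given, this transcript level does not check the KO label. The genes whose levels over the 18 KO libraries were most like those of ACOD1 were CACNA1I, IDO1 and INHBA, each with r = 0.996, LOC101929319 with 0.995 and TNFAIP6 with 0.994. These 18 libraries fall in 6 groups of treatment and time and are not independent points. What the likeness follows was not tested.

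At 12 h, 7430 genes were called (35.0% of those tested), of which 3299 were higher (15.5%) and 4131 lower (19.5%) in stimulated cells. The 3 stimulated values lay all above the 3 vehicle values in 4987 genes (23.5%) and all below in 6578 (31.0%). The falls were more numerous and the rises larger: 418 genes rose by at least 4 on the log2 scale and 79 fell by as much, and 35 rose by at least 8 while 0 fell by as much. The median change over all genes was -0.12. The 4-library comparison called 2470 genes higher (11.6%) and 2706 lower (12.7%). The counts of gene lists below are to be read against these shares of all genes. With the replicate number as a block the counts were 3805 and 4897.

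**Figure D1:**
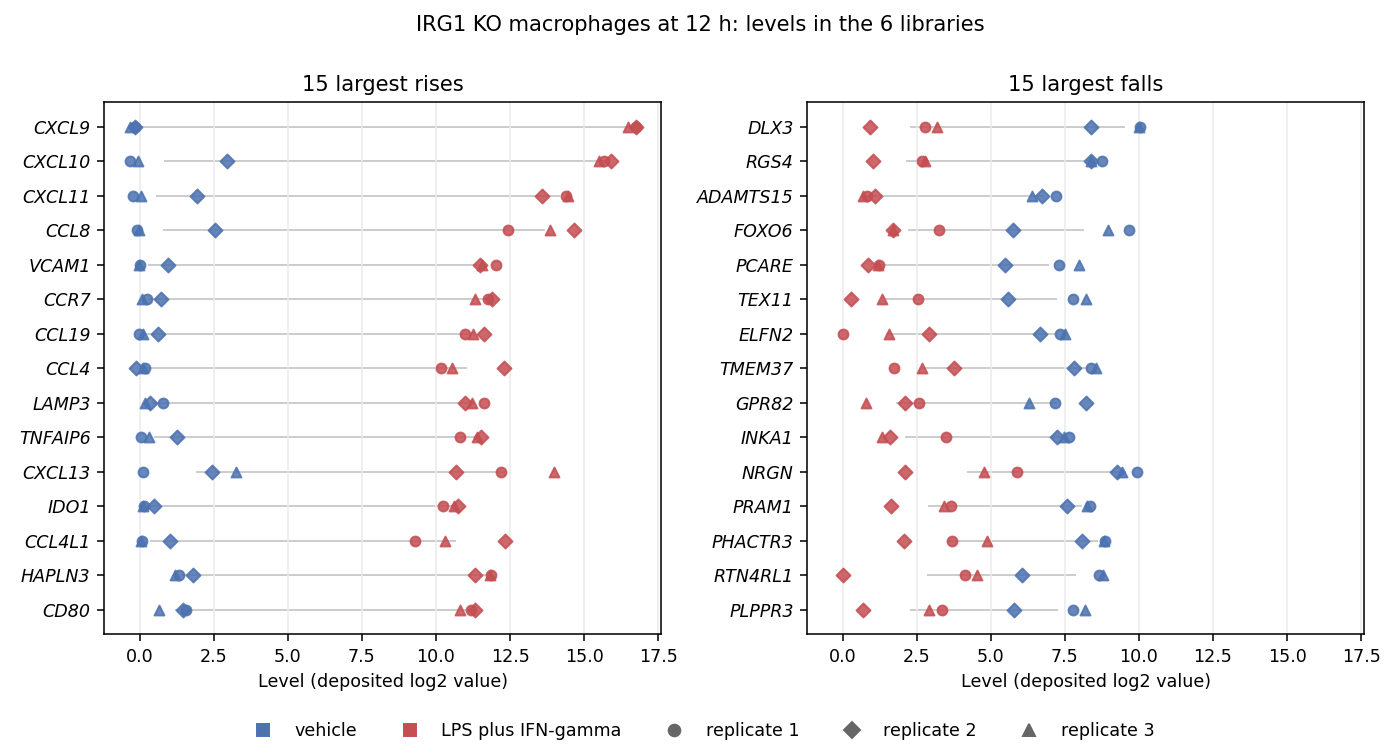
Levels (log2 expression value) of the 15 largest rises and the 15 largest falls of the KO comparison at 12 h in each of the 6 libraries, with a separate marker for each replicate number a colour for each treatment and a grey line between the group means. The groups do not overlap in any of the 30 genes; vehicle library 2 lies above vehicle libraries 1 and 3 in CXCL10 and CCL8, and below them in FOXO6 and TEX11.

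The 4 largest rises were chemokines: CXCL9, CXCL10 and CXCL11, which draw activated T cells through CXCR3, and CCL8, which draws monocytes. The 250 bases before the RefSeq start of each of the 4 genes follow, on the gene's own strand in GRCh38.p14, because they hold letters of the elements through which the 2 stimuli are known to act. Their positions are chr4:76007510-76007759 (minus strand) for CXCL9, chr4:76023498-76023747 (minus) for CXCL10, chr4:76036071-76036320 (minus) for CXCL11 and chr17:34319185-34319434 (plus) for CCL8. Capitals mark matches on either strand to GAAA followed by any 2 bases and GAAA (interferon-stimulated response element, ISRE), TTCNNNGAA (GAS, the interferon-gamma element) and GGGA followed by any 2 bases and TTCC (kappa B, the NF-kB element).
CXCL9: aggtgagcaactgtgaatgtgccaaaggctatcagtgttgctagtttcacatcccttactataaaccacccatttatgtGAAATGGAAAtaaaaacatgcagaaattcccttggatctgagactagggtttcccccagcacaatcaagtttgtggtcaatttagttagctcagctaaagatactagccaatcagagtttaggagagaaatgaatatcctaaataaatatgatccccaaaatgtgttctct
CXCL10: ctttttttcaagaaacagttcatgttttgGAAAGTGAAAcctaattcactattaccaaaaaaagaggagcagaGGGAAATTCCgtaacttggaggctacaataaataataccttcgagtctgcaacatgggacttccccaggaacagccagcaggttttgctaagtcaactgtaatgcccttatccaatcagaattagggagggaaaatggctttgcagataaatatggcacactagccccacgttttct
CXCL11: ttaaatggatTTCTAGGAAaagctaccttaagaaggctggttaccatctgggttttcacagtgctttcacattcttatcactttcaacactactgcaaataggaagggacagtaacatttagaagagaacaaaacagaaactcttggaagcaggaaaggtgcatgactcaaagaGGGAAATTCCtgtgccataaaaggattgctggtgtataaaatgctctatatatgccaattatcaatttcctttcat
CCL8: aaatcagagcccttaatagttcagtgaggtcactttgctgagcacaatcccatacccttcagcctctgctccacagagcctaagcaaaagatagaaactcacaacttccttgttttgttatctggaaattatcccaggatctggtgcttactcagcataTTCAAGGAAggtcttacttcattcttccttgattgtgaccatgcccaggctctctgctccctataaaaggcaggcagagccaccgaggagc
The capitals are an ISRE that begins 171 bases before the start in CXCL9, an ISRE at 221 and a kappa B match at 177 in CXCL10, a GAS at 240 and a kappa B match at 76 in CXCL11, and a GAS at 91 in CCL8.

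The windows searched ran from 250 bases before to 50 after each start, and 13736 of the 21232 genes tested matched a promoter in the table. ISRE letters occurred in 13.7% of the promoters of genes that rose by at least 4, in 1.77% of those of genes that fell by at least 2 in 3.12% of those of genes tested and in 3.57% of all 35116 promoters. In the same order, GAS letters occurred in 12.6%, 4.86%, 6.57% and 7.66%, and kappa B letters in 6.99%, 1.23%, 1.58% and 1.61%. For 29 interferon-stimulated genes with a promoter, 25 of 41 promoters (61.0%) held ISRE letters. A match is a description of the letters and not a site, and none of these shares was tested.

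CXCL9 read -0.17, -0.17 and -0.34 in vehicle libraries 1 to 3 and 16.75, 16.75 and 16.47 in stimulated libraries 1 to 3. It went from the bottom to the top of the scale, since 16.75 is the highest value in the table. CXCL10 read -0.34, 2.96 and -0.07 in vehicle and 15.65, 15.90 and 15.49 in stimulated cells. CXCL11 read -0.24, 1.95 and 0.05, against 14.39, 13.59 and 14.44. CCL8 read -0.09, 2.56 and -0.04, against 12.44, 14.67 and 13.84. Vehicle library 2 was the highest vehicle library for these last 3 genes, and it was far below every stimulated library. The changes were 16.88 ± 0.40, 14.83 ± 0.73, 13.55 ± 0.72 and 12.84 ± 0.76, and 16.86, 15.78, 14.51 and 13.20 in the 4-library comparison.

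Of 14 CXC chemokines tested, 11 rose and 0 fell (median change 5.86, against -0.12 over all genes), and 11 rose in the 4-library comparison. CXCL13, the B cell chemoattractant, rose by 10.34 ± 1.10. CXCL8, which draws neutrophils, rose by 8.22 ± 0.68 and CXCL1, another neutrophil chemoattractant, by 7.75 ± 0.41. CXCL14 and PPBP were not called, and CXCL5, at 1.44, was not called with all 6 libraries (adjusted p = 0.0616) but was with the replicate number as a block (adjusted p = 0.0424), in the 4-library comparison (adjusted p = 0.0243) and without vehicle library 2 or stimulated library 3. Of 17 CC chemokines and CX3CL1 tested, 14 rose and 1 fell (median 4.72), with the same counts in the 4-library comparison. CCL19, a ligand of CCR7, rose by 11.04 ± 0.65, and CCL4, a macrophage inflammatory protein, by 10.95 ± 0.58. CCL4L1 rose by 10.25 ± 0.59, but its sequence is nearly that of CCL4 and reads of the pair may have been split between them. CCL3, another macrophage inflammatory protein, was 426-fold higher and CCL2, the main monocyte chemoattractant, was 325-fold higher. The eosinophil chemoattractant CCL24 fell by 2.64, a call that was lost without vehicle library 1 or vehicle library 3.

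Among 15 chemoattractant receptors 3 rose and 3 fell (20.0% each, near the 15.5% and 19.5% of all genes), with 4 and 3 in the 4-library comparison. CCR7, which guides cells to lymph nodes, read 0.26, 0.73 and 0.07 in vehicle and 11.75, 11.89 and 11.31 in stimulated libraries, a rise of 11.29 ± 0.50. The groups were far apart and tight. CCR2, the receptor of CCL2, was 13.1-fold lower, CX3CR1, the fractalkine receptor, 13.3-fold lower, and CXCR2, a receptor of CXCL8, fell by 3.58 ± 0.35. C5AR1, the receptor of the complement fragment C5a, was 3.54-fold higher.

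TNF read 0.38, 0.99 and 0.51 in vehicle and 5.01, 6.32 and 4.93 in stimulated libraries, a change of 4.79 ± 0.44 (adjusted p = 1.07e-09). IL6 read -0.01, 0.56 and -0.05, against 8.30, 9.63 and 8.79, a change of 8.74 ± 0.63 (adjusted p = 6.90e-12). For both of these inflammatory cytokines the groups were well separated. IL1B, the pyrogenic cytokine that caspase-1 matures, read 5.16, 8.90 and 6.33 in vehicle and 9.53, 14.04 and 10.08 in stimulated libraries. Library 2 was the highest of both groups, and its vehicle value came close to stimulated library 1. IL1B was 21.3-fold higher (4.41 ± 1.24, adjusted p = 0.0061). Without stimulated library 2 the change was 3.00 (adjusted p = 0.081), which was not called, and in the 4-library comparison 4.06 (adjusted p = 0.026).

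IL12B, the subunit shared by IL-12 and IL-23, read 0.05, 0.42 and 0.02 in vehicle and 2.74, 8.10 and 2.96 in stimulated libraries. Stimulated library 2 stood far above the other stimulated libraries, and the change of 4.44 ± 1.15 (adjusted p = 0.0031) became 2.69 without it (adjusted p = 0.063) and 2.82 in the 4-library comparison (adjusted p = 0.089). IFNB1, the type I interferon made first by macrophages, read 1.09, 1.65 and 0.00 against 1.58, 6.13 and 3.80. The groups overlapped, and the change of 2.92 ± 1.04 (adjusted p = 0.0288) was 1.77 without stimulated library 2 (adjusted p = 0.24), 2.46 without vehicle library 3 (adjusted p = 0.118) and 2.14 in the 4-library comparison (adjusted p = 0.21). It also lost its call without vehicle library 1 or stimulated library 3. IL10, the main cytokine that restrains macrophages, read 0.93, 1.78 and 0.65 against 2.25, 3.20 and 2.58. All 3 stimulated values were above the vehicle values, but the change of 1.56 ± 0.69 was not called (adjusted p = 0.0824).

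Of 21 proinflammatory cytokines tested, 15 rose and 1 fell (median 3.47), and 11 rose in the 4-library comparison, in which IL12B, IL23A, IFNB1 and IFNL1 were not called. IL23A also lost its call without any 1 of vehicle libraries 1, 2 and 3 or stimulated library 2, and IFNL1 without stimulated library 2. EBI3, the partner chain of IL-27 and IL-35, was 586-fold higher, and IL27 itself rose by 6.03 ± 0.47. IL32 rose by 8.64 ± 0.37. IL18, which like IL1B is matured by caspase-1, fell by 1.41, while IL18BP, the protein that captures IL-18, was 10.4-fold higher. Of 26 TNF superfamily ligands and receptors, 14 rose and 2 fell (53.8% and 7.69%, against 15.5% and 19.5% of all genes). The counts were 12 and 1 in the 4-library comparison. The costimulatory receptor TNFRSF9 rose by 7.19 ± 0.56, the death ligand TNFSF10 was 98.1-fold higher, and CD40, the receptor of the T cell ligand CD40LG, was 38.3-fold higher.

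Genes known as brakes on these pathways rose too: of 19 feedback genes 14 rose and 0 fell (median 3.66), with the same counts in the 4-library comparison. SOCS1, which blocks JAK kinases, read 2.77, 2.94 and 1.22 in vehicle and 10.26, 9.97 and 10.24 in stimulated libraries, a rise of 7.84 ± 0.55. ZC3H12A, a nuclease that degrades cytokine mRNA, was 57.9-fold higher, and TNFAIP3, the ubiquitin-editing enzyme A20, 50.1-fold higher. Of 15 genes of NF-kB subunits, inhibitors and kinases, 12 rose and 1 fell (12 and 0 in the 4-library comparison). RELB was 35.6-fold higher, NFKB2 28.1-fold and the inhibitor NFKBIA 19.1-fold, while the kinases IKBKB and CHUK were not called. Of 22 receptors, adaptors and kinases of TLR signalling, 8 rose and 2 fell (36.4% and 9.09%, against 15.5% and 19.5% of all genes). Their median change was 0.75, and the 4-library comparison called 7 and 2. TLR4 and its partners CD14 and LY96 were not called, MYD88 was 5.53-fold higher, and TLR5 fell by 2.69 ± 0.53.

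Nearly the whole list of interferon-stimulated genes rose. Of 40 interferon-stimulated antiviral genes, 39 rose and 0 fell (median 4.61), and the same counts held in the 4-library comparison. IFI44L read 2.33, 6.51 and 3.93 in vehicle and 11.64, 11.85 and 11.99 in stimulated libraries and was 190-fold higher. The stimulated libraries lay within a narrow range, whereas vehicle library 2 was the highest of the vehicle libraries. Vehicle library 2 was also the highest vehicle library in RSAD2, the antiviral enzyme viperin, which read 4.69, 5.94 and 4.45 against 11.77, 11.75 and 12.20, and in IFIT2, a blocker of viral translation, which read 5.51, 7.83 and 5.13 against 12.62, 13.21 and 12.54. ISG20, an antiviral exonuclease, rose by 7.39 ± 0.51. Of 15 tested sensors of nucleic acid in the cytosol, 10 rose and 1 fell (66.7% and 6.67%, against 15.5% and 19.5% of all genes). The counts were 9 and 1 in the 4-library comparison. RIGI was 37.7-fold higher and IFIH1 32.6-fold higher. STING1 was the gene that fell, by 1.32.

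Of 14 guanylate-binding and APOL genes with IRGM and IRGQ, 12 rose and 0 fell (median 4.09), as in the 4-library comparison. GBP1, a GTPase that coats intracellular bacteria, read 7.41, 8.11 and 6.99 in vehicle and 15.19, 15.12 and 15.37 in stimulated libraries, 211-fold higher. GBP5, which promotes inflammasome assembly, was 185-fold higher. Of 27 IRF, STAT, BATF, JAK and interferon receptor genes, 19 rose and 1 fell, as in the 4-library comparison. IRF1, the transcription factor that carries much of the interferon-gamma response, was 21.9-fold higher, and IRF7, the driver of type I interferon genes, 24.3-fold higher. STAT4 rose by 5.70 ± 0.46 and IRF4 by 5.32 ± 0.65. The interferon-gamma receptor chain IFNGR1 was the 1 that fell, by 1.68.

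**Figure D2:**
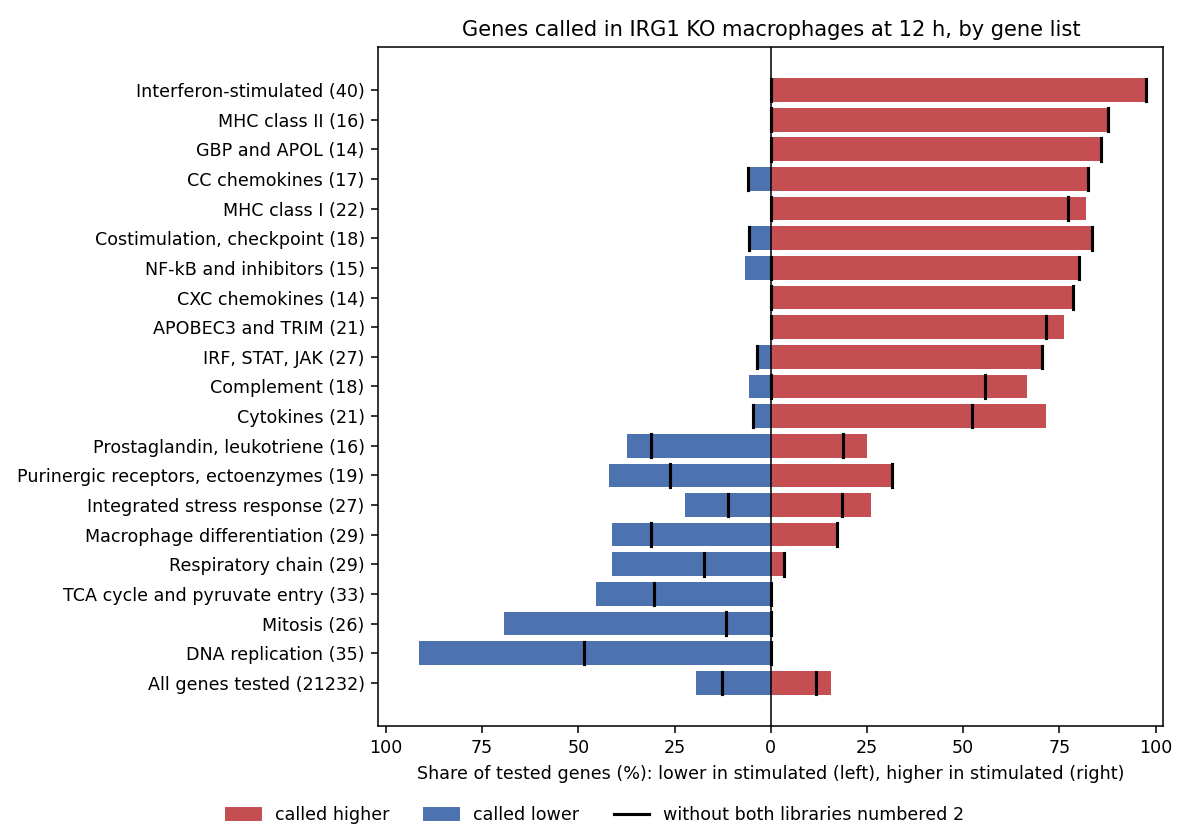
Percentage of the tested members of each gene list called higher (right of 0) or lower (left of 0) in the KO comparison at 12 h, with the number of members tested; black ticks give the same share without both libraries numbered 2. Interferon-stimulated genes reach 97.5% higher, and DNA replication genes 91.4% lower with a tick at 48.6%.

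Antigen presentation genes rose in both classes. Of 16 MHC class II genes, 14 rose and 0 fell (median 4.18, the same counts in the 4-library comparison), and RFXAP and RFXANK were not called. HLA-DRA, the alpha chain of HLA-DR, read 2.27, 3.24 and 2.48 in vehicle and 10.38, 10.55 and 10.51 in stimulated libraries. CIITA, the coactivator that switches on class II genes, read 1.55, 1.99 and 0.50 against 7.40, 7.22 and 7.03. For both genes the stimulated libraries were close together and well above the vehicle libraries, with changes of 7.82 ± 0.60 and 5.87 ± 0.53. The median change of the list was 2.27 in WT cells at 12 h, with 5.01 for HLA-DRA and 3.42 for CIITA, but none of the 16 differences between KO and WT responses was called. Reads of the HLA genes may be split between near-identical members. Of 22 class I genes, 18 rose and 0 fell (median 1.83, and 17 in the 4-library comparison). The peptide transporter TAP1 was 35.1-fold higher and the immunoproteasome subunit PSMB9 7.33-fold higher, while the constitutive subunits PSMB5, PSMB6 and PSMB7 were not called.

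Of 18 costimulatory and checkpoint genes, 15 rose and 1 fell (median 3.06), as in the 4-library comparison. CD80, the CD28 ligand, read 1.58, 1.47 and 0.65 in vehicle and 11.17, 11.30 and 10.81 in stimulated libraries. CD274, the PD-1 ligand, read 0.72, 1.22 and 0.13 against 8.81, 8.90 and 8.99. Activating and inhibitory ligands were thus both raised, by 9.86 ± 0.40 and 8.21 ± 0.43. The checkpoint molecule VSIR fell by 2.06. IDO1, the first enzyme of tryptophan breakdown and itself an immune brake, read 0.15, 0.49 and 0.10 against 10.22, 10.73 and 10.61, a rise of 10.27 ± 0.26. WARS1, the tryptophanyl-tRNA synthetase, was 43.8-fold higher, KYNU, a later enzyme of the kynurenine route, 8.61-fold higher, and QPRT, which ends the route towards NAD, 11.5-fold lower. NOS2, the inducible nitric oxide synthase, was not called at -0.29.

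Of 23 inflammasome and cell death genes, 16 rose and 2 fell (69.6% and 8.70%, against 15.5% and 19.5% of all genes). Their median change was 1.80, and the 4-library comparison called 15 and 2. CASP5, which senses LPS in the cytosol, rose by 5.97 ± 0.51, and AIM2, a DNA sensor, by 5.79 ± 0.60. NLRP1 fell by 2.57, and PYCARD, the adaptor ASC, by 1.45. Of 18 complement genes 12 rose and 1 fell (66.7% and 5.56%, against 15.5% and 19.5% of all genes). The counts were 10 and 0 in the 4-library comparison. The C1 inhibitor SERPING1 was 85.8-fold higher, while C1QB, a chain of C1q, rose by 8.00 ± 0.56. VCAM1, the endothelial ligand of the integrin VLA-4, read 0.00, 0.96 and -0.02 in vehicle and 12.01, 11.50 and 11.54 in stimulated libraries, a rise of 11.37 ± 0.60. ICAM1, the ligand of LFA-1, was 56.6-fold higher.

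Of 29 macrophage differentiation genes, 5 rose and 12 fell (17.2% and 41.4%, against 15.5% and 19.5% of all genes; median -0.58), with 5 and 9 in the 4-library comparison. LPL, lipoprotein lipase, read 10.25, 10.77 and 9.60 in vehicle and 6.40, 4.38 and 5.88 in stimulated libraries, 25.1-fold lower. TREM2, a lipid-sensing receptor, read 8.79, 9.30 and 8.70 against 5.13, 5.26 and 5.33, 12.9-fold lower. The stimulated libraries of both genes lay below each vehicle library. PPARG, the lipid-sensing nuclear receptor, fell by 3.12 ± 0.48, and PLIN2, which coats lipid droplets, was 5.91-fold lower. CEBPB, a factor of inflammatory gene expression, was 10.8-fold higher. CD68 and TYROBP were not called, and CSF1R, the receptor of the growth factor M-CSF, had a change of -1.09 (adjusted p = 0.0912) that was called with the replicate number as a block (adjusted p = 0.0054) and without stimulated library 2.

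The 15 largest falls lay outside the immune lists. DLX3, a homeobox factor, read 10.05, 8.39 and 10.02 in vehicle and 2.79, 0.92 and 3.18 in stimulated libraries, a fall of 7.19 ± 0.84 on the log2 scale. RGS4, which shortens G protein signals, read 8.77, 8.37 and 8.39 against 2.67, 1.03 and 2.78, a change of -6.35 ± 0.45. Both groups were clear of each other, with stimulated library 2 the lowest. NRGN, a calmodulin-binding protein, was 39.2-fold lower and PHACTR3, an actin and phosphatase regulator, 33.0-fold lower. The other 11 were ADAMTS15, FOXO6, PCARE, TEX11, ELFN2, TMEM37, GPR82, INKA1, PRAM1, RTN4RL1 and PLPPR3, with changes of -5.90 to -4.93. All 30 of the largest rises and falls remained called in the 4-library comparison.

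Cell cycle genes fell with all 6 libraries. Of 35 DNA replication genes 32 fell (91.4%, against 19.5% of all genes) and 0 rose (median -1.81). Of 26 mitosis genes 18 fell (69.2%) and 0 rose (median -1.99). E2F1, the factor that drives entry into S phase, read 7.15, 7.53 and 6.23 in vehicle and 4.25, 3.29 and 3.59 in stimulated libraries, 9.58-fold lower (adjusted p = 6.37e-06). TYMS, thymidylate synthase, read 10.09, 9.99 and 9.55 against 7.34, 6.04 and 6.84, 8.80-fold lower (adjusted p = 2.22e-05). In both genes the groups were apart and stimulated library 2 was lowest. CDC20, the activator of the anaphase-promoting complex, read 10.45, 9.66 and 10.74 against 8.55, 5.32 and 8.63. Here stimulated library 2 lay far below the other stimulated libraries, and the change of -2.78 ± 0.93 (adjusted p = 0.0199) was -2.01 in the 4-library comparison (adjusted p = 0.18). CDC20 also lost its call without stimulated library 2, vehicle library 1 or vehicle library 3.

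The 4-library comparison called 17 of the replication genes lower (48.6%) and 3 of the mitosis genes (11.5%), namely BIRC5, NUSAP1 and CDK1. It called 12.7% of all genes lower, so the mitosis share there was not above that of all genes. Mitosis calls numbered 3 without stimulated library 2, 8 without vehicle library 1 and 8 without vehicle library 3. The proliferation markers MKI67, at -2.02 (adjusted p = 0.117, and 0.0442 with the replicate number as a block), and PLK1, at -1.95 (adjusted p = 0.0572, and 0.0012 with the block), were not called with all 6 libraries and no block. PLK1 was also called without stimulated library 1, vehicle library 2 or stimulated library 3. Of 20 CDK inhibitor and p53 pathway genes tested, 6 rose and 4 fell (30.0% and 20.0%, against 15.5% and 19.5% of all genes). The counts were 6 and 3 in the 4-library comparison. CDKN1A, the cell cycle inhibitor p21, was 4.04-fold higher. CCND1 rose by 2.12, a call that was lost without vehicle library 3. SESN1 changed by -3.165, and CDKN1B and CDKN1C were not called. The 250 bases before the start of 2 replication genes that fell, CDT1 and GINS2, follow because they hold the letters GGCGGGAA of the E2F element, in capitals and searched on both strands. CDT1, which loads the replicative helicase, lies at chr16:88803539-88803788 (plus) and was 7.69-fold lower. GINS2, a helicase subunit, lies at chr16:85688955-85689204 (minus) and fell by 2.61 on the log2 scale.
CDT1: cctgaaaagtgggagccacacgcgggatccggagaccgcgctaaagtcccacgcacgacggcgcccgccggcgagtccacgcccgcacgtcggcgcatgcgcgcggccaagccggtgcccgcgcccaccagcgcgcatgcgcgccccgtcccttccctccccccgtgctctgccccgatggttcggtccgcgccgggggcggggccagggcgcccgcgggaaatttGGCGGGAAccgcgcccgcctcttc
GINS2: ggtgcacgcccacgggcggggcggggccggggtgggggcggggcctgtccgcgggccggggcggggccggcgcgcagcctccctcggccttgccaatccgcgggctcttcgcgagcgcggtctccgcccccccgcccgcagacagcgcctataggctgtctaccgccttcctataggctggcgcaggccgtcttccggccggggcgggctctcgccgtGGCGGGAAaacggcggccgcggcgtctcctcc
The letters begin 24 bases before the start in CDT1 and 32 in GINS2. They occurred in 8 of 38 promoters of replication genes (21.1%), in 4.17% of those of mitosis genes, in 4.31% of those of genes tested and in 3.16% of all promoters. GINS2 was chosen after its value was seen, and these shares were not tested.

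**Figure D3:**
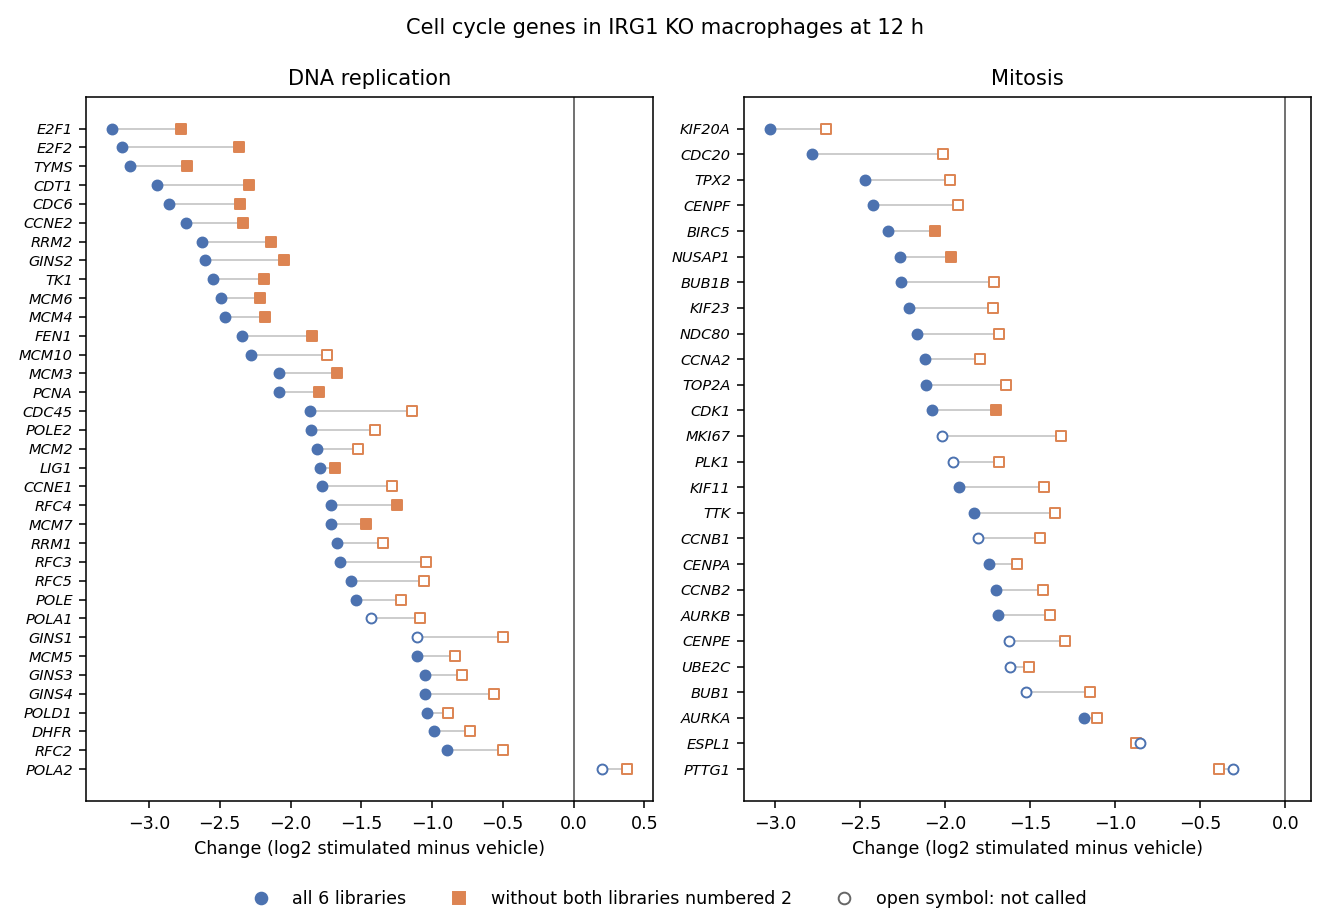
Change (stimulated minus vehicle, log2) of each DNA replication and mitosis gene with all 6 KO libraries of 12 h and without both libraries numbered 2, with filled points for called genes. Nearly all points lie below 0 in both settings, while the calls go from 32 to 17 and from 18 to 3.

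Changes in genes of energy metabolism were mostly small. Of 33 TCA cycle, pyruvate and carrier genes 15 fell (45.5%, against 19.5% of all genes) and 0 rose (median -0.46). In the 4-library comparison 10 fell (30.3%, against 12.7% of all genes). PDK4, the kinase that shuts pyruvate dehydrogenase, read 7.31, 3.91 and 7.20 in vehicle and 0.33, 1.02 and 2.47 in stimulated libraries. Vehicle library 2 was the lowest vehicle library and was still above each stimulated one, and the change was -4.87 ± 1.00. The dicarboxylate carrier SLC25A10 fell by 2.84 ± 0.41, pyruvate carboxylase PC was 6.51-fold lower and the cytosolic malate dehydrogenase MDH1 2.63-fold lower. Succinate dehydrogenase, the target of itaconate, had 1 of 4 subunits called, SDHA, with a change of -0.43 that was not called in the 4-library comparison and kept its call in 1 of 6 fits that leave out 1 library. Of 29 respiratory chain subunits 12 fell and 1 rose (41.4% and 3.45%, against 19.5% and 15.5% of all genes). In the 4-library comparison 5 fell and 1 rose, and the falls (17.2%) were near the 12.7% of all genes. With 1 library left out, 9 to 11 fell. Falls were small, with NDUFS3 of complex I at 2.22-fold lower, and NDUFA9 of complex I was the 1 that rose, 2.56-fold. Of 31 glycolysis and hypoxia genes 9 rose and 4 fell (29.0% and 12.9%, against 15.5% and 19.5% of all genes), with 7 and 2 in the 4-library comparison and 12 and 7 with the replicate number as a block. The transporter SLC2A6 had the largest change, 4.26 ± 0.35, and HK2, PFKFB3 and LDHA were not called.

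Genes of redox, iron and eicosanoid metabolism were called in both directions. SOD2, the mitochondrial superoxide dismutase, read 5.97, 5.67 and 5.91 in vehicle and 12.41, 12.60 and 12.86 in stimulated libraries, 109-fold higher. CAT, catalase, read 10.13, 9.89 and 10.41 against 6.42, 6.35 and 6.63, 12.8-fold lower. Each group of both genes was tight and the groups were far apart. HMOX1, haem oxygenase, read 9.21, 10.02 and 9.77 against 10.15, 10.75 and 10.66 and at 1.81-fold was not called (adjusted p = 0.136). Of 23 NRF2 pathway genes 5 rose and 3 fell (21.7% and 13.0%, against 15.5% and 19.5% of all genes). The counts were 5 and 1 in the 4-library comparison, and with the replicate number as a block 8 rose. TXN, thioredoxin, was 7.10-fold higher. The metal-binding protein MT2A was 44.4-fold higher, ferritin heavy chain FTH1 4.95-fold higher, and the iron exporter SLC40A1 fell by 3.13 ± 0.50. Of 16 prostaglandin and leukotriene genes 4 rose and 6 fell (25.0% and 37.5%, against 15.5% and 19.5% of all genes), with 3 and 5 in the 4-library comparison. LTC4S, ALOX5AP and ALOX5, which make leukotrienes, fell, at -2.85, -2.66 and -1.84, while the prostaglandin receptors PTGIR and PTGER4 were 13.7-fold and 10.1-fold higher. PTGS2, cyclooxygenase 2, had a change of 2.05 that was not called.

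The response was next set against that of WT cells at the same time. Across the 21232 genes the KO and WT responses had r = 0.847 and Spearman's rho = 0.82, given as a description, and 97.3% of the 7430 genes called in KO had the same sign in WT. A test of the difference of the 2 responses called 34 genes (0.160%), 13 in which the KO value was higher (0.0612%) and 21 in which it was lower (0.0989%). With the replicate number as a block 115 were called, and in the comparison without both KO libraries numbered 2, 48. Single libraries decided much of this count. It was 83 without KO vehicle 2 and 76 without WT stimulated 2. It was 22 without KO stimulated 3, 19 without WT stimulated 1, 19 without WT vehicle 2 and 18 without WT stimulated 3. It was 16 without KO stimulated 1, 15 without KO vehicle 3, 11 without WT vehicle 1, 8 without KO vehicle 1 and 4 without WT vehicle 3.

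TMCC3, a protein of the endoplasmic reticulum membrane, rose by 6.94 in KO and 3.28 in WT cells, a difference of 3.66 ± 0.67 (adjusted p = 0.016) that held in 9 of the 12 fits that leave out 1 library. The complement genes C4A, C4B and C4B_2, near-identical copies that cannot be told apart by short reads, rose by 5.32, 5.32 and 5.43 in KO and by 3.45, 3.53 and 3.48 in WT cells. Their differences of 1.87, 1.79 and 1.95 held in 8, 7 and 9 of the 12 fits. CXCL1 rose by 7.75 in KO and 4.94 in WT cells (difference 2.81 ± 0.58, adjusted p = 0.0349, held in 4 of 12). RGS4 fell by 6.35 in KO and by 3.13 in WT cells (-3.22 ± 0.64, adjusted p = 0.0316, held in 6 of 12). The PAK4 inhibitor INKA1 differed by -4.09 and the phospholipase PLCB2 by 1.66, and each held in 3 of 12. SRPX2 differed by -2.69 and the sialyltransferase ST3GAL4 by -2.22, held in 4 and 2 of 12. Outside the rule for named genes and chosen after their values were seen, DNASE1L3, a secreted DNase, rose by 5.70 in KO against 0.18 in WT (difference 5.52, held in 3 of 12), and PDGFB, a growth factor, by 1.69 against 5.85 (difference -4.15, held in 12 of 12). Without both KO libraries numbered 2, TMCC3, C4B_2, SRPX2, ST3GAL4 and PDGFB were called, whereas C4A, C4B, CXCL1, RGS4, INKA1, PLCB2 and DNASE1L3 had adjusted p from 0.0502 to 0.085.

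**Figure D4:**
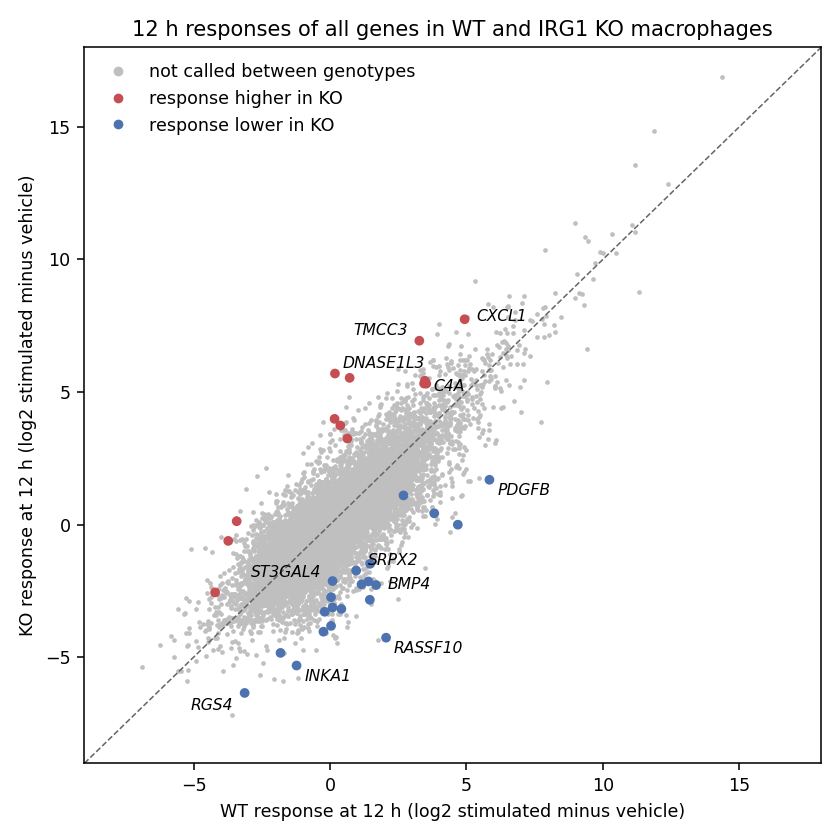
Change at 12 h (stimulated minus vehicle, log2) in WT cells on the x axis and in KO cells on the y axis, 1 point per gene, with the 34 genes whose responses differed in colour and the diagonal drawn. Most genes follow the diagonal at r = 0.847, and DNASE1L3, TMCC3 and CXCL1 lie above it and RASSF10, PDGFB, INKA1 and RGS4 below it.

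Against the KO response at 6 h, which used its own vehicle libraries, the 12 h response had r = 0.852 and rho = 0.782, and 96.9% of the 7430 genes had the same sign. The difference was called in 44 genes (0.207%), 13 higher (0.0612%) and 31 lower (0.146%) at 12 h, and in 184 with the replicate number as a block. Without both KO 12 h libraries numbered 2 the count was 2. Leaving out 1 library gave 12 without KO vehicle 6 h library 3, 20 without KO vehicle 12 h library 2 and 24 without KO vehicle 12 h library 3. It gave 25 without KO stimulated 12 h library 2, 29 without KO vehicle 12 h library 1 and 151 without KO stimulated 6 h library 2. PYGL, the liver form of glycogen phosphorylase, changed by -1.22 at 6 h and -3.40 at 12 h. This difference of -2.18 ± 0.38 (adjusted p = 0.0088) held in 12 of 12 fits that leave out 1 library and had an adjusted p of 0.085 without both numbered 2. CD34, a surface marker of blood precursors, rose by 5.81 at 6 h and 2.42 at 12 h, a difference that held in 6 of 12 fits. STAT5A, which carries GM-CSF signals, rose by 3.75 and 2.01, and its difference held in 1 of 12. CDH1, E-cadherin, changed by -1.17 at 6 h and 3.95 at 12 h, and its difference held in 2 of 12.

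Against 24 h the 12 h response had r = 0.897 and rho = 0.863, with 98.6% of the 7430 genes of the same sign. The difference, 24 h minus 12 h, was called in 12 genes (0.0565%), 9 higher (0.0424%) and 3 lower (0.0141%) at 24 h. Of those higher, 7 are protein-coding, among them genes of the amino acid response, which the kinase GCN2 starts through ATF4. ATF4 itself read 9.77, 9.57 and 9.48 in vehicle and 10.08, 10.21 and 10.04 in stimulated libraries at 12 h. The groups did not overlap, but the change was only 0.50 ± 0.13 (adjusted p = 0.00393), or 1.42-fold, and 0.43 in the 4-library comparison, where it was not called (adjusted p = 0.06). At 24 h it was 1.98, a difference of 1.48 ± 0.19 (adjusted p = 0.000278) that held in 12 of 12 fits that leave out 1 library and without both numbered 2 (adjusted p = 0.00267).

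PHGDH, the first enzyme of serine synthesis, read 6.25, 6.49 and 6.03 in vehicle and 3.34, 3.63 and 3.73 in stimulated libraries at 12 h, 6.44-fold lower. Its response was -2.69 at 12 h and 2.58 at 24 h, a difference of 5.27 ± 0.95 that held in 5 of 12 fits that leave out 1 library. AARS1, the alanyl-tRNA synthetase, went from -1.56 to 1.63, a difference of 3.19 ± 0.54 that held in 9 of 12 fits. The sign at 12 h was therefore opposite to that at 24 h in both genes. PSAT1, the next enzyme of serine synthesis, went from -2.23 to 3.55, STC2, a secreted glycoprotein, from 0.16 to 5.58, and the glycyl-tRNA synthetase GARS1 from -0.39 to 1.79; these 3 were chosen after their values were seen, and their differences held in 9, 8 and 2 of 12. HOXD11 and 2 uncharacterized loci were the 3 lower genes, and HOXD11 changed by 5.68 at 6 h, 3.25 at 12 h and 0.21 at 24 h (the difference held in 2 of 12). Without both 12 h libraries numbered 2, the differences of PHGDH, AARS1, PSAT1, STC2, GARS1 and HOXD11 had adjusted p from 0.0523 to 0.12.

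The count of 12 was 3 without both 12 h libraries numbered 2. It was 1 without KO vehicle 24 h library 1, 1 without KO vehicle 24 h library 3 and 2 without KO stimulated 24 h library 2. It was 4 without KO vehicle 12 h library 1, 4 without KO stimulated 12 h library 3, 5 without KO vehicle 12 h library 2 and 5 without KO stimulated 12 h library 1. It was 21 without KO stimulated 24 h library 3. Of 27 integrated stress response genes at 12 h, 7 rose and 6 fell (25.9% and 22.2%, against 15.5% and 19.5% of all genes). The 4-library comparison called 5 and 3 (18.5% and 11.1%, against 11.6% and 12.7% of all genes). Without vehicle library 2 alone 3 fell. The median change was 0.20 at 12 h and 2.14 at 24 h. ATF3 and ATF5, factors of this response that other signals also raise, were 31.8-fold and 31.4-fold higher at 12 h, whereas GDF15, a stress hormone, was 11.9-fold lower.

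**Figure D5:**
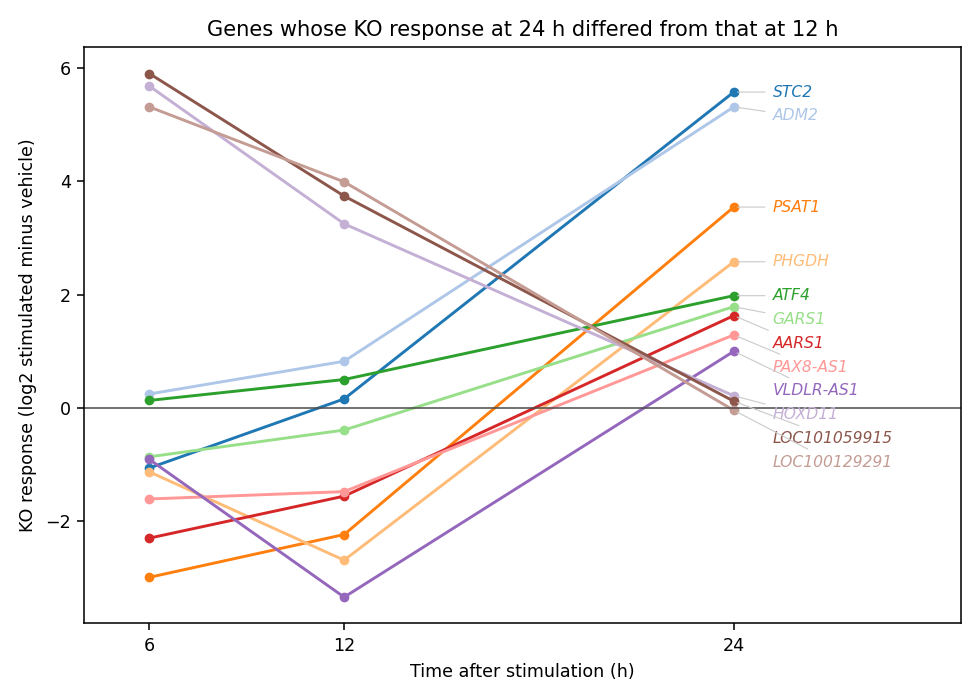
Change (stimulated minus vehicle, log2) in KO cells at 6, 12 and 24 h of the 12 genes whose response differed between 12 h and 24 h, with 1 line per gene through the fitted mean changes and no error bars drawn. The 9 genes higher at 24 h lie between -3.34 and 0.82 at 12 h and between 1.00 and 5.58 at 24 h, and the 3 lower genes fall from 3.25 to 3.99 at 12 h to values near 0.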

How the data were processed

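RNA-seq was analysed in the 36 libraries of the series, 3 in each of 12 groups, and the results concern the KO 12 h groups. The authors deposited 1 table of log2 values for 21599 Entrez Gene entries. Tools named are cutadapt 1.9.1 and GSNAP, with GRCh37.p5 as genome build, per the submitters' processing notes. The counting tool, the normalization and the offset before the logarithm are not given in the sources used here. Across libraries the median ran from 5.4691 to 5.4753, the 25th percentile from 3.5212 to 3.5492, the 75th from 7.1678 to 7.1694 and the 5th from 0.8658 to 1.0163. The highest value is 16.75. Depth, and the precision it gives, is unknown, so no interval or floor from counts is given.

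Genes with a log2 value of at least 3.32 (linear 10) in at least 3 libraries were kept, which left 21232 and removed 367. limma 3.58.1 in R 4.3.3 was fitted with 12 group means to all 36 libraries (eBayes with trend; 24 residual degrees of freedom, median prior of 4.45), and p-values were adjusted by Benjamini-Hochberg over all genes kept within each of 4 comparisons. The differences of responses share the KO 12 h libraries. Gene names and promoters came from RefSeq tables (GRCh38.p14), whose build differs from that of the files, so coordinates describe the promoters only. Python 3.11.15 with pandas 2.3.3 and numpy 2.4.6 served for tables, and matplotlib 3.10.9 for plots.

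Members, lists and tests were chosen with earlier results of these data known. The genes named are ACOD1, then HMOX1, CXCL10, IFNB1, TNF, IL1B, IL6, IL10 and IL12B, then the 15 largest rises and 15 largest falls among called genes whose groups do not overlap and whose higher mean is at least log2 6.64 (linear 100), then up to 6 members with the largest change of each list, then for each difference of responses the 8 largest in each direction among genes also called in the KO comparison at 12 h, with the same minimum level, and the 5 most like ACOD1. Uncharacterized loci, antisense and long noncoding genes, pseudogenes and small RNAs were left out of the rises, falls and differences. Other list members, given to show the rest of a list, and genes said to be so were named after their values were seen. Tested on simulated data for the KO comparison at 12 h (21232 genes), the fit recovered 20 of 100 genes shifted by log2 1 and 68 of 100 shifted by log2 2, with 0 in the wrong direction and 6 false calls. Only these genes were changed, whereas 7430 were called in the data. The simulated noise was normal and independent between libraries, and no library stood apart as those numbered 2 did. These rates therefore need not hold for the comparison reported.

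Like-numbered libraries were checked as pairs from the labels' replicate numbers. After removal of group means, stimulated and vehicle libraries of the same number correlated at 0.214, 0.257 and 0.299 in KO at 12 h, 0.156, 0.234 and 0.352 in WT at 12 h and 0.548, 0.589 and 0.269 in KO at 6 h, all over 0.1. At 24 h in KO they correlated at 0.167, 0.039 and 0.227. In KO at 6 h, stimulated library 3 correlated more with vehicle library 1 (0.301) than with vehicle library 3 (0.269). Alternatives were the fit of only the libraries compared, no filter or a stricter one (genes whose mean reaches the median gene), an offset of 5, quantile normalization, median centring, no variance trend, library weights, each library left out in turn, the replicate number as a block and a test against a log2 change of 1. Leaving out both KO 12 h libraries numbered 2, or all 6 KO libraries numbered 2, was added after seeing the data. Some items are not reported here.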

Additional observations from a re-analysis of the deposited data

Results flagged for a closer look

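Each result here was singled out because a test of the difference between 2 responses, both stimulated minus vehicle, passed an adjusted p of 0.05 in limma. Values are differences of log2 changes. The responses at 12 h differed between KO and WT in 34 genes, between 12 h and 6 h in KO in 44, and between 24 h and 12 h in KO in 12. How the counts move is given under the processing, and no explanation was weighed.

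For KO minus WT at 12 h, the KO response was higher in TMCC3 by 3.66, CXCL1 by 2.81, C4B_2 by 1.95, C4A by 1.87, C4B by 1.79 and PLCB2 by 1.66. It was lower in INKA1 (-4.09), RGS4 (-3.22), SRPX2 (-2.69) and ST3GAL4 (-2.22). Each of these 10 lost its call in at least 3 of the 12 fits that leave out 1 library.

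For 12 h minus 6 h in KO, the 12 h response was higher in CDH1, E-cadherin, by 5.12, and in SETDB2, a histone methyltransferase homologue, by 1.61. Smaller differences were found in ABHD12, a lysophospholipase (1.48), MICAL1, an actin-oxidizing enzyme (1.47), PRR12 (1.34), WDR91, an endosome protein (1.30), and GCC2, a Golgi tether (1.17). The 12 h response was lower in CD34 (-3.39), CRYBB1, a crystallin (-3.03), OAF (-2.53), the protease PCSK6 (-2.37) and PYGL (-2.18). It was also lower in GLIPR1 (-1.87), STAT5A (-1.74), the protocadherin PCDHGA12 (-1.47) and SAR1A, a GTPase of vesicle budding (-1.39). Without both KO 12 h libraries numbered 2, adjusted p of these genes ran from 0.085 (PYGL) to 0.304 (GCC2).

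For 24 h minus 12 h in KO, the 24 h response was higher in PHGDH by 5.27, AARS1 by 3.19 and ATF4 by 1.48. Of these, ATF4 kept its call in 12 of 12 fits that leave out 1 library, AARS1 in 9 of 12 and PHGDH in 5 of 12.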

How the results depend on the processing

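The count of 7430 genes called in the KO comparison at 12 h stayed within 1.5 times of that value in every setting run except the stricter filter (4027), which tests fewer genes, and the minimum log2 change of 1 (2051), which tests a stricter hypothesis. Leaving out single libraries gave 5847 to 6651, leaving out both KO libraries numbered 2 gave 5176 and all 6 KO libraries numbered 2 gave 6152. Of the 350 named genes under 18 settings each, 5944 values kept their call, 182 lost it, 49 gained it and 0 reversed. The differences of responses were far less stable, and the cause was not tested. KO minus WT (34 genes) went to 4 with only the libraries compared, 0 with the stricter filter (limma, 527 at an unadjusted p under 0.05), 82 with the offset of 5, 1117 with library weights, 1 with the minimum change, 196 without all 6 KO libraries numbered 2, and 4 to 83 with single libraries left out. 12 h minus 6 h (44 genes) went to 0 with only the libraries compared (limma, 1742 at an unadjusted p under 0.05), 20 with the stricter filter, 115 with the offset of 5, 2779 with library weights, 1 with the minimum change, 2 without both numbered 2, 21 without all 6 and 12 to 151 with single libraries left out. 24 h minus 12 h (12 genes) went to 5 with only the libraries compared, 5 with the stricter filter, 193 with library weights, 0 with the minimum change (limma, 132 at an unadjusted p under 0.05), 3 without both numbered 2, 2 without all 6 and 1 to 21 with single libraries left out. With the replicate number as a block, the 4 counts were 8702, 115, 184 and 35. For 24 h minus 12 h the numbers were not shown to pair the libraries, and at 6 h they did so only in part. Depth is unknown, so low values carry an error that could not be computed, and 3 libraries a group limit the precision throughout.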

Other observations

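Receptors of extracellular nucleotides and adenosine moved in both directions at 12 h. Of 19 purinergic genes tested, 6 rose and 8 fell (31.6% and 42.1%, against 15.5% and 19.5% of all genes). Without both libraries numbered 2 the counts were 6 and 5 (31.6% and 26.3%, against 11.6% and 12.7% of all genes). P2RX7, the ATP-gated channel that starts IL-1 beta release, read 3.05, 3.78 and 2.42 in vehicle and 9.07, 9.57 and 8.74 in stimulated libraries, a rise of 6.04 ± 0.53. ADORA2A, the adenosine receptor that restrains inflammation, read 1.58, 1.82 and 1.79 against 5.60, 5.55 and 5.64. The groups of both genes were far apart. ADORA3 fell by 2.52 ± 0.45, and NT5E, the enzyme CD73 that makes adenosine, was 5.72-fold lower. P2RY12 fell by 2.87 ± 0.85, and its adjusted p was 0.0947 without vehicle library 2 and 0.14 without both numbered 2.

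Of 32 genes of ubiquitin, its conjugating enzymes and deubiquitinases, 19 rose and 2 fell (59.4% and 6.25%, against 15.5% and 19.5% of all genes). Without both numbered 2 the counts were 17 and 1. UBD, the ubiquitin-like modifier FAT10, rose by 6.11 ± 0.66. USP18, which removes ISG15, was 15.9-fold higher and CYLD, an NF-kB brake, 13.1-fold higher, while USP2 fell by 4.05 ± 0.59. Of 21 APOBEC3 and TRIM genes 16 rose (76.2%) and 0 fell, with 15 and 0 without both numbered 2. TRIM22 was 70.1-fold higher and APOBEC3A rose by 5.42 ± 0.69. Among replication-dependent histone genes, 6 of 15 rose (40.0%) and 0 fell, while 32 of 35 DNA replication genes fell. Without both numbered 2, 4 histone genes rose (26.7%, against 11.6% of all genes) and 0 fell. H4C8 read 4.00, 4.08 and 5.74 in vehicle and 6.62, 7.16 and 8.06 in stimulated libraries, 6.40-fold higher, and H2AC18 was 3.32-fold higher; histone genes are near-identical and their reads may be split.

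Of 15 BCL2 family genes tested, 7 rose and 2 fell (46.7% and 13.3%, against 15.5% and 19.5% of all genes). Without both numbered 2 the counts were 5 and 1. BCL2L14 had the largest change, 6.62. BCL2A1, a survival factor of the family, was 45.9-fold higher and MCL1 3.32-fold higher. BID and PMAIP1 rose too, by 2.67 and 2.22, and BIK changed by -1.78. Of 22 fatty acid and LXR genes tested, 4 rose and 6 fell (18.2% and 27.3%, against 15.5% and 19.5% of all genes). Without both numbered 2 the counts were 2 and 5. CH25H, which makes 25-hydroxycholesterol, rose by 4.70 ± 0.78, and NR1H3, the oxysterol receptor LXR alpha, was 10.6-fold higher. SCD changed by -1.91 and FADS1 by -1.76, and ABCA1 was not called. The phosphatase DUSP5 was 67.4-fold higher and DUSP1 12.6-fold higher, and the growth factor brake SPRY2 was 4.02-fold lower. F13A1, coagulation factor XIII, fell by 3.99 ± 0.50, and TFPI2, a protease inhibitor, rose by 5.78 ± 0.84.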
